A study of Homo sapiens with 4 samples.

Results

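The genes described here encode the phase I and phase II enzymes of xenobiotic metabolism, taken as all protein-coding genes whose symbols start with CYP1 to CYP4, FMO, ADH, ALDH (without ALDH1L2), AKR1, UGT1A, UGT2, GSTA, GSTM, GSTT, GSTP, GSTO, SULT1 or SULT2 and that had at least 20 counts summed over the 4 libraries. Of 61541 genes in the deposited table, 141 protein-coding genes carried these prefixes and 99 met the count minimum. The other 42 had fewer than 20 counts, 19 of them with 0 counts in every library. MHCC97H is an established human hepatocellular carcinoma (HCC) line, and its total RNA was sequenced from 2 libraries of control cells (shCon) and 2 libraries of cells with UBXN1 knocked down by shRNA (shUBXN1). By the methods, shRNAs were carried by lentiviral plasmids, with a control construct against RFP where the labels write shCon. The sources used here do not name the UBXN1 shRNA of the sequenced cells and do not say whether replicates were separate cultures, so p-values measure only the spread between these samples. UBXN1 encodes a UBX domain protein that binds ubiquitin.

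Phase I enzymes (cytochromes P450, flavin monooxygenases, alcohol and aldehyde dehydrogenases, aldo-keto reductases) oxidize or reduce a compound, and phase II enzymes (UDP-glucuronosyltransferases, glutathione transferases, sulfotransferases) attach a polar group to it. In the liver these enzymes clear drugs, bilirubin, steroids and reactive aldehydes. Their genes are controlled by ligand-activated receptors such as AHR, PXR and CAR, by the oxidant sensor pair KEAP1 and NRF2, and by hepatocyte factors such as HNF4A and CEBPA.

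Several members were taken in by their prefix rather than for drug metabolism. The prefixes also took in 10 CYP genes of the families CYP19, CYP20, CYP24, CYP26, CYP27, CYP39 and CYP46, kept apart below as other CYP genes. Most of them act on steroids, vitamin D, retinoic acid or sterols. Among the ALDH genes, ALDH4A1, ALDH5A1, ALDH6A1, ALDH7A1 and ALDH18A1 belong to amino acid or neurotransmitter metabolism. The genes under the count minimum included many of the abundant enzymes of adult liver, among them CYP1A2, CYP2A6, CYP4A11, FMO1, ADH1A, ADH4, AKR1D1, SULT2A1 and UGT2B4. The hepatocyte marker ALB was low, at 16.00 and 14.8 TPM in shCon and 3.99 and 4.21 TPM in shUBXN1 (TPM, counts per length scaled to 1 total in every library), whereas the epithelial keratin KRT8 stood at 4047 and 4059 TPM in shCon and 2993 and 3239 TPM in shUBXN1. Markers of other cell types were not all near 0. The 4 cholangiocyte markers summed to 504 and 486 TPM in shCon and 327 and 329 TPM in shUBXN1, with KRT19 lower (log2 fold change -1.24 ± 0.08, ± standard error), KRT7 higher (1.15 ± 0.076) and CFTR at 0. The 4 leukocyte markers summed to 99.2 and 103 TPM in shCon and 93.0 and 83.5 TPM in shUBXN1, nearly all of it CD68, a lysosomal protein, with CD3E at 0 and PTPRC at most 0.0642 TPM. The 3 endothelial markers summed to 10.1 and 9.90 TPM in shCon and 14.0 and 12.6 TPM in shUBXN1, nearly all of it PECAM1, which rose (0.35 ± 0.082), with CDH5 at 0 in shUBXN1. The 6 fibroblast and stellate markers summed to at most 1.51 TPM in every library, with COL1A1 higher and DCN lower. COL1A1 passed the filter on low counts, described below, only through shUBXN1, and DCN only through shCon. The part of all these marker genes in the enzyme results was not tested.

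The libraries held 23373700 to 27380508 expected counts, and mitochondrially encoded genes took 5.28% and 5.59% of them in shCon and 7.43% and 8.27% in shUBXN1. UBXN1 itself stood at 67.00 and 77.3 CPM in shCon and 16.8 and 18.5 CPM in shUBXN1 (CPM, counts scaled to library size with TMM factors), 24.4% of the shCon mean (log2 fold change -2.03 ± 0.096, adjusted p = 9.98e-10). Here and below, ± after a fold change is the standard error, and adjusted p comes from the quasi-likelihood test of edgeR, after Benjamini-Hochberg adjustment over the 16863 genes that passed its filter on low counts. RNA-seq of whole cultures cannot tell fewer cells expressing a gene from less RNA per cell.

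In MHCC97H control cells the enzyme repertoire was led by aldo-keto reductases and aldehyde dehydrogenases. Per length, the highest levels in shCon belonged to AKR1B10, a reductase of retinal and lipid aldehydes, at 4623 ± 21.4 TPM (SD, n = 2), AKR1B1, the aldose reductase, at 2839 ± 32.7 TPM, and ALDH1A1, a retinaldehyde dehydrogenase, at 1737 ± 30.9 TPM. They were followed by AKR1C3, a steroid reductase, at 1173 ± 65.2 TPM, ALDH3A1, which oxidizes aromatic and lipid peroxidation aldehydes, at 879.9 ± 23.8 TPM, and AKR1B15 at 772 ± 17.8 TPM. Ranks and sums in TPM rest on the deposited gene lengths. In CPM, AKR1C1, with a deposited length of 6543 bases, stood above AKR1B1 in shCon (means of 2023 and 1925 CPM). The 10 AKR1 members summed to 10493 ± 83.8 TPM and the 15 ALDH members to 3337 ± 13.9 TPM, out of 16390.5 ± 127 TPM for all 99 members. The 24 CYP1 to CYP4 members together reached only 413 ± 11.2 TPM.

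After UBXN1 knockdown the summed level of the 99 members was 16480 and 16301 TPM in shCon and 11195 and 11056 TPM in shUBXN1, or 67.9% of the shCon mean. The groups did not overlap. The 3 AKR1B genes fell by 4128 TPM together, 78.4% of the net loss, and the remaining members went from 8158 to 7020 TPM, 86.1% of their shCon mean. By family, the sums in shUBXN1 relative to shCon were lowest for other CYP (53.6%), FMO (55.9%), AKR1 (58.6%) and UGT1A (62.5%). The GST sum stayed at 98.7%, inside the shCon range of 498 to 538 TPM, and the UGT2 sum was 109% of the shCon mean, with 49.1 and 46.5 TPM in shCon against 55.3 and 49.0 TPM in shUBXN1.

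**Figure D1:**
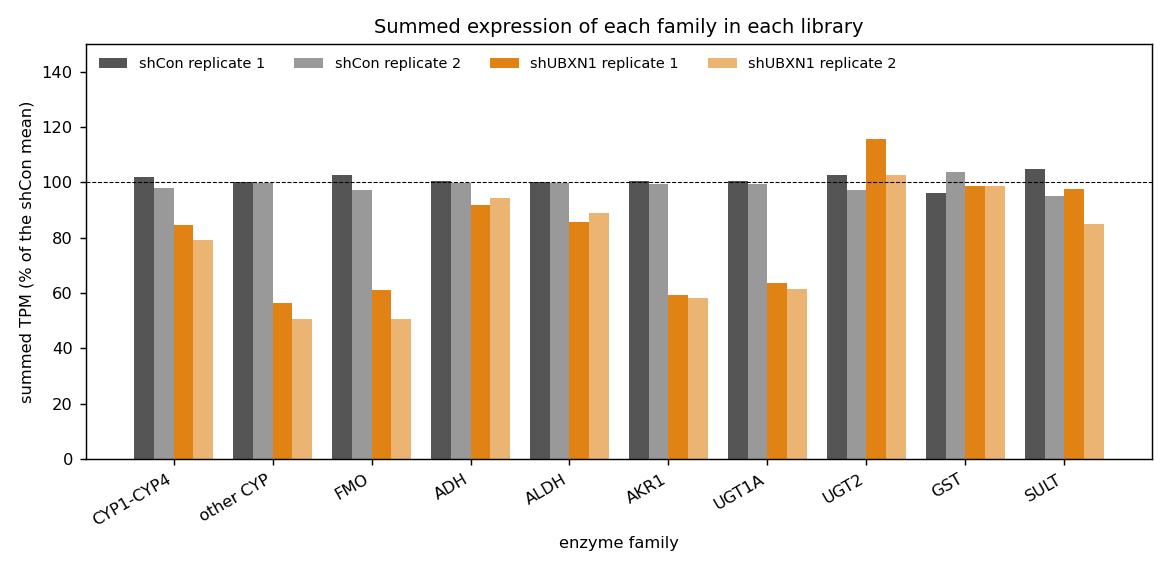
Summed TPM of each enzyme family in each of the 4 libraries, as a percentage of the shCon mean of that family (dashed line at 100); bars start at 0. The AKR1, UGT1A, FMO and other CYP bars of both shUBXN1 libraries lie far below those of shCon, whereas the GST and UGT2 bars do not.

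Gene by gene, 87 of the 99 members passed the filter on low counts and were tested. Of these, 34 fell and 20 rose, and 33 did not pass the adjusted p threshold of 0.05. The called share of 62.1% lies near the background, since 56.2% of all genes tested and 61.8% of protein-coding genes tested were called. Falls made up 39.1% of the members, beside 28.2% of all genes and 32.2% of protein-coding genes, and rises 23%, beside 28.0% and 29.7%. At a fold change of 2 with an unadjusted p under 0.05, the thresholds of the study, 17 members were lower (19.5%, beside 6.09% of all genes and 5.77% of protein-coding genes tested) and 15 higher (17.2%, beside 11.8% and 10.6%), against 17.9% of all genes and 16.4% of protein-coding genes in either direction. The median log2 fold change of the members was -0.06, beside 0.02 for all genes tested. In 66 of the 87 members (75.9%) the groups did not overlap, beside 78.0% of all genes and 81.6% of protein-coding genes tested. For 8 of the tested members the filter was passed only through shUBXN1 and for 2 only through shCon, so such genes could hardly appear without a difference. They include 3 of the 20 rises (CYP2E1, CYP26A1 and SULT1A2) and 2 of the 34 falls (CYP39A1 and GSTA2). All of these also count in the 2-fold shares above. So do CYP3A4 and UGT2B10, which were higher at the 2-fold thresholds alone and passed the filter only through shUBXN1. The genes described below for the size of their change were taken among those whose groups do not overlap, so that separation of the groups in them restates the choice.

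The direction of change went with the level of expression, in the members and in all genes alike. Among the 17 members at a mean of at least 100 CPM, 12 fell (70.6%) and 1 rose, with a median log2 fold change of -0.49, beside 46.2% of all genes at that level lower, 24.5% higher and a median of -0.15. Between 10 and 100 CPM 14 of 33 fell (42.4%) and 7 rose (21.2%), beside 36.5% and 29% of all genes. Between 1 and 10 CPM 8 of 22 fell (36.4%) and 10 rose (45.5%), beside 16% and 30.6% of all genes. These counts include 1 rise that passed the filter only through shUBXN1 (CYP2E1) and 2 falls that passed only through shCon (CYP39A1 and GSTA2). Of the 15 members tested under 1 CPM, 7 passed the filter only through shUBXN1, so their directions are not read. The 34 members that fell had a median exonic GC content of 45.9% and the 20 that rose one of 53.9%, and with offsets for GC content in the fit 36 fell and 19 rose; any further part of GC content or depth in these directions was not tested.

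**Figure D2:**
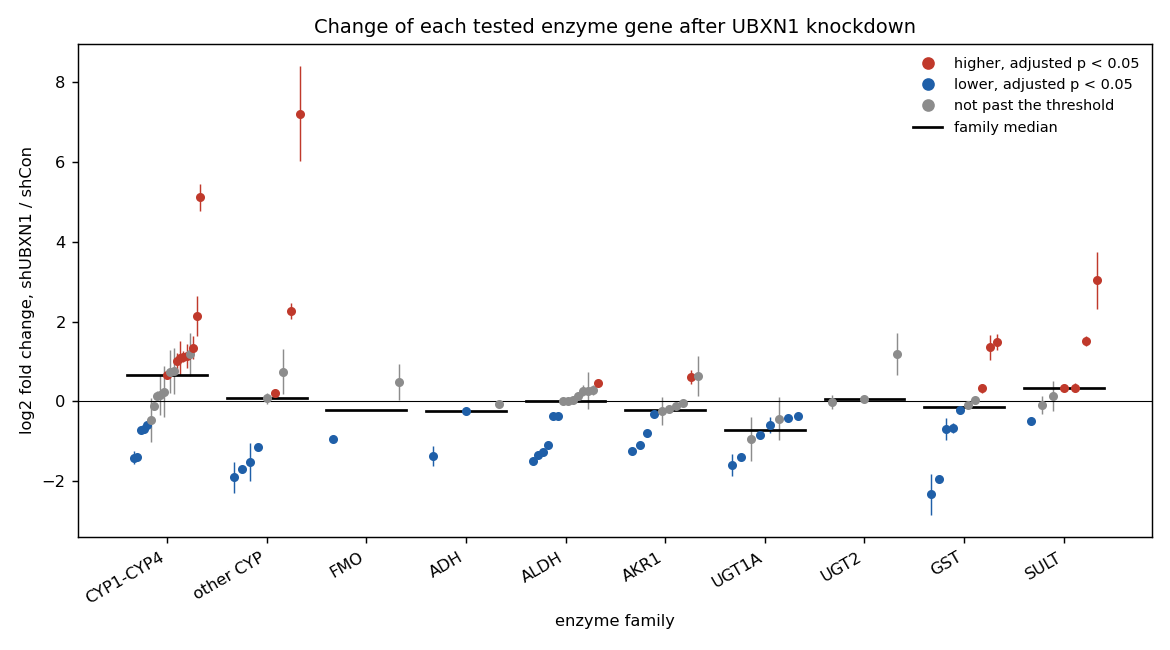
Log2 fold change (shUBXN1 over shCon) of the 87 tested members by family, with bars of 1 standard error, coloured by the call at an adjusted p under 0.05; black lines are family medians. UGT1A genes lie below 0 throughout, CYP1 to CYP4 genes spread from -1.41 to 5.12, and the value at 7.21 is CYP26A1, which had 0 counts in both shCon libraries and whose fitted value has no meaning as a size.

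Among the aldo-keto reductases, 4 of the 10 members fell (40%) and 1 rose (10%), with a family median of -0.21. Beside the family counts here and below, 28.2% of all genes tested fell and 28.0% rose. Of protein-coding genes tested, 32.2% fell and 29.7% rose. AKR1B10 stood at 3686 and 3773 CPM in shCon and 1496 and 1652 CPM in shUBXN1, so that 42.2% was left (log2 fold change -1.24 ± 0.094, adjusted p = 7.50e-08). AKR1B1 stood at 1912 and 1938 CPM in shCon and 1062 and 1150.3 CPM in shUBXN1 (log2 fold change -0.80 ± 0.087, adjusted p = 2.63e-06). AKR1B15, the close homologue next to AKR1B10, stood at 611 and 651 CPM in shCon and 282 and 308 CPM in shUBXN1 (log2 fold change -1.10 ± 0.081, adjusted p = 6.41e-08). All 3 genes lie side by side at chr7:134442356-134579875 (GRCh38), and for each both shUBXN1 libraries lay below both shCon libraries. AKR1B10 and AKR1B15 share sequence, with 9.54% of the 50-base words of AKR1B10 transcripts also found in AKR1B15, and summed as 1 unit they fell by 1.22 on the log2 scale.

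The AKR1C cluster on chromosome 10, whose enzymes reduce steroid and prostaglandin ketones, held 1 call in each direction. AKR1C1 stood at 1973 and 2073 CPM in shCon and 1772 and 1932 CPM in shUBXN1 (log2 fold change -0.13 ± 0.09, adjusted p = 0.248), and AKR1C2 at 635 and 666 CPM in shCon and 623 and 642 CPM in shUBXN1 (-0.04 ± 0.078, adjusted p = 0.691). Neither difference passed the threshold. AKR1C3 fell slightly and stood at 582 and 554 CPM in shCon and 475 and 433 CPM in shUBXN1 (log2 fold change -0.32 ± 0.081, adjusted p = 0.0036), and AKR1C4, the liver type, rose at a low level (5.55 and 5.61 CPM in shCon and 9.32 and 7.64 CPM in shUBXN1, log2 fold change 0.61 ± 0.17, adjusted p = 0.00852). Since 35.2% of the 50-base words of AKR1C2 also occur in AKR1C1, the 4 genes AKR1C1 to AKR1C4 were also summed, giving a log2 fold change of -0.14 ± 0.091 with an adjusted p of 0.21. AKR1A1, AKR1C8 and AKR1E2 did not pass the threshold.

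Of 14 tested aldehyde dehydrogenases 6 fell (42.9%, beside 28.2% of all genes tested) and 1 rose (7.14%, beside 28.0%), and the median was 0.00. The 4 largest falls were those of ALDH5A1, succinic semialdehyde dehydrogenase of GABA breakdown, ALDH16A1, a divergent member of the family, ALDH3A2, the fatty aldehyde dehydrogenase, and ALDH3A1. ALDH3A1 stood at 816 and 873 CPM in shCon and 375 and 419 CPM in shUBXN1, with 47.05% left (log2 fold change -1.09 ± 0.085, adjusted p = 1.05e-07), and its neighbour ALDH3A2 on chromosome 17 at 311 and 309.6 CPM in shCon and 127 and 132 CPM in shUBXN1 (log2 fold change -1.26 ± 0.074, adjusted p = 6.22e-09). The groups were far apart in both. ALDH5A1 stood at 36.5 and 39.5 CPM in shCon and 13.03 and 13.99 CPM in shUBXN1 (log2 fold change -1.49 ± 0.1, adjusted p = 2.38e-08) and ALDH16A1 at 57.8 and 53.9 CPM in shCon and 21.3 and 22.8 CPM in shUBXN1 (log2 fold change -1.34 ± 0.087, adjusted p = 1.78e-08). ALDH2, the mitochondrial acetaldehyde dehydrogenase, fell less, with 77.1% left (log2 fold change -0.37 ± 0.078), as did ALDH18A1, which makes pyrroline-5-carboxylate for proline (-0.37 ± 0.082).

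ALDH1A1, the most abundant aldehyde dehydrogenase per length, stood at 1810.0 and 1819 CPM in shCon and 1860.1 and 2091 CPM in shUBXN1 (log2 fold change 0.12 ± 0.091, adjusted p = 0.267), so its difference did not pass the threshold although both shUBXN1 libraries lay above shCon. The call depended on the processing: with total count scaling the log2 fold change of ALDH1A1 was 0.21 (adjusted p = 0.00799), with limma on log2(TPM + 1) 0.18 (0.0191) and without shUBXN1 replicate 1 0.20 (0.0014). Its share of the summed ALDH level went from 52.6% and 51.6% in shCon to 67.4% and 67.8% in shUBXN1. ALDH7A1, of lysine breakdown, was the member that rose and stood at 55.7 and 58.4 CPM in shCon and 75.7 and 80.6 CPM in shUBXN1 (log2 fold change 0.45 ± 0.076, adjusted p = 1.56e-04). ALDH1B1, ALDH9A1, ALDH3B1, ALDH4A1, ALDH6A1 and ALDH1A2 did not pass the threshold, and ALDH1A3 had 2 counts in shCon and 23 in shUBXN1, a ratio of 12 with an exact 95% counting interval of 2.96 to 105. ALDH1A3 met the count minimum for members almost only through shUBXN1, so its ratio and interval partly restate that choice. Intervals on counts given here cover counting error only.

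Of the alcohol dehydrogenases, ADH6 stood at 5.43 and 5.10 CPM in shCon and 2.38 and 1.71 CPM in shUBXN1, with both shUBXN1 libraries below shCon (log2 fold change -1.36 ± 0.25, adjusted p = 3.89e-04). ADH1C, an ethanol dehydrogenase, stood at 52.1 and 56.7 CPM in shCon and 42.4 and 49.6 CPM in shUBXN1 (log2 fold change -0.24 ± 0.09, adjusted p = 0.0325), a small difference beside its spread. ADH5, the glutathione-dependent formaldehyde dehydrogenase, stood at 115 and 112 CPM in shCon and 105 and 112 CPM in shUBXN1 (log2 fold change -0.06 ± 0.073, adjusted p = 0.522), and its groups overlapped. The only FMO gene above 2 CPM was FMO5, which fell and stood at 73.8 and 72.2 CPM in shCon and 40.7 and 35.9 CPM in shUBXN1, with 52.5% left (log2 fold change -0.93 ± 0.083, adjusted p = 3.64e-07).

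Of 21 CYP1 to CYP4 genes tested, 8 rose (38.1%) and 5 fell (23.8%), and the median was 0.66. Beside these shares, 28.0% of all genes tested rose and 28.2% fell, and 29.7% and 32.2% of protein-coding genes tested. The called share of 61.9% lay near the 61.8% of protein-coding genes tested. Of these genes 4 passed the filter only through shUBXN1, and the median was 0.17 with at least 10 counts required in every library and 0.36 without shUBXN1 replicate 1. The rises were mostly of genes at low levels and the falls of the genes that carried most of the family's transcripts, and the summed level was 421 and 405 TPM in shCon and 349 and 328 TPM in shUBXN1. CYP4F11, CYP3A5, CYP2S1, CYP4F3 and CYP1B1 made up most of this sum in shCon, with CYP4F11 alone at 32.7% and 32.3%.

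CYP4F enzymes hydroxylate fatty acids and leukotriene B4 at the omega end. CYP4F3 stood at 86.5 and 83.1 CPM in shCon and 31.2 and 33.4 CPM in shUBXN1, with 38.1% left (log2 fold change -1.39 ± 0.079, adjusted p = 4.69e-09). CYP4F11 stood at 206 and 202 CPM in shCon and 124 and 122 CPM in shUBXN1 (log2 fold change -0.73 ± 0.072, adjusted p = 1.00e-06), and CYP4F12 at 12.1 and 11.3 CPM in shCon and 4.64 and 4.18 CPM in shUBXN1 (log2 fold change -1.41 ± 0.16, adjusted p = 4.38e-06). In each of the 3 genes both shUBXN1 libraries lay below both shCon libraries, while the fourth gene of this cluster on chromosome 19, CYP4F2, had 4 to 12 counts per library and did not pass the threshold. CYP3A5, a drug-oxidizing enzyme, stood at 75.5 and 74.6 CPM in shCon and 50.03 and 42.4 CPM in shUBXN1 (log2 fold change -0.70 ± 0.086, adjusted p = 9.35e-06), and CYP2B6, a classic CAR target, at 41.5 and 41.3 CPM in shCon and 25.4 and 29.4 CPM in shUBXN1 (log2 fold change -0.60 ± 0.092, adjusted p = 7.51e-05). CYP3A4, the main drug-oxidizing P450 of adult liver, was barely detected and passed the filter only through shUBXN1. It had 13 and 8 counts (shCon) against 31 and 15 (shUBXN1) (log2 fold change 1.18 ± 0.53, adjusted p = 0.0732).

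**Figure D3:**
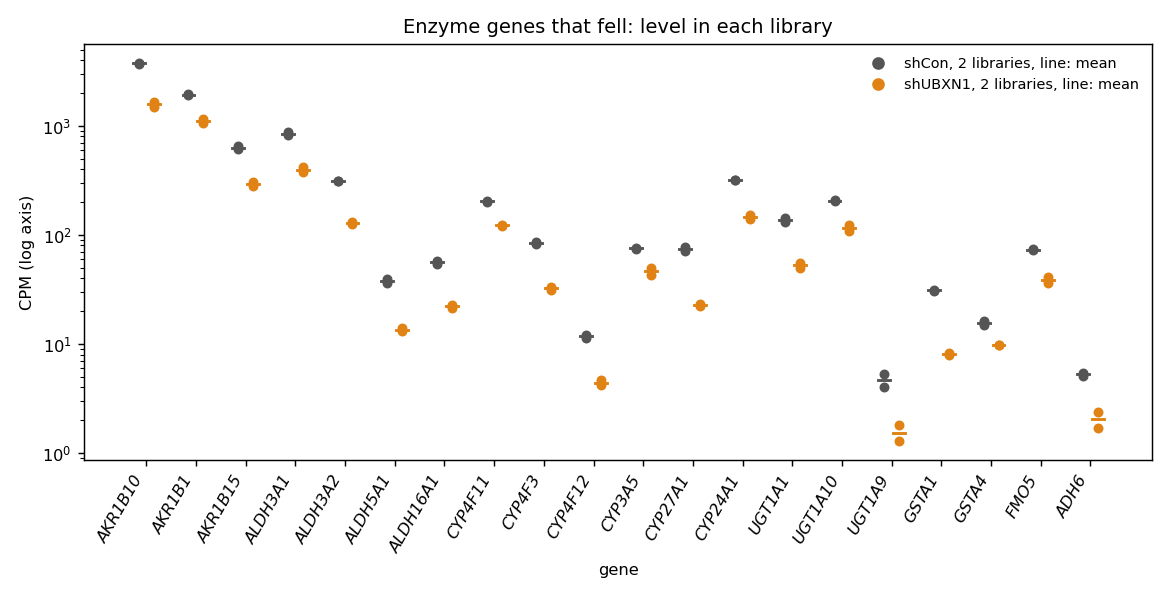
Level of 20 members that fell, in CPM on a log axis, in each of the 2 shCon (grey) and 2 shUBXN1 (orange) libraries, with the group mean as a line. The genes were chosen as lower, and levels run from AKR1B10, the most abundant, down to UGT1A9.

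CYP2E1, the ethanol-inducible P450, had the largest rise among members detected in every library. It stood at 0.187 and 0.213 CPM in shCon and 6.90 and 7.25 CPM in shUBXN1, that is 5 and 5 counts (shCon) against 171 and 170 (shUBXN1), a 35.4-fold difference in mean CPM (log2 fold change 5.12 ± 0.34, adjusted p = 2.08e-08). Both shUBXN1 libraries were far above both shCon libraries, although the gene passed the filter only through shUBXN1 and even there stayed below 8 TPM. Of its exon bases 25.4% are covered on the other strand by SYCE1 and a long noncoding RNA gene, and neither had over 3 counts in any library.

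The 2 CYP1 genes measured, both classic targets of the aryl hydrocarbon receptor AHR, rose. CYP1A1 stood at 2.14 and 4.17 CPM in shCon and 6.13 and 9.81 CPM in shUBXN1 (log2 fold change 1.35 ± 0.29, adjusted p = 0.0012), without overlap but with a wide spread inside each group. CYP1B1 stood at 83.1 and 77.3 CPM in shCon and 122 and 131 CPM in shUBXN1 (log2 fold change 0.66 ± 0.076, adjusted p = 5.04e-06), with a narrow spread. Of CYP1B1 exon bases, 12.9% are covered on the other strand by RMDN2 and CYP1B1-AS1, and these went different ways: RMDN2 had a log2 fold change of -0.61 and CYP1B1-AS1 one of 0.64.

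CYP2D6, which oxidizes many basic drugs, stood at 0.450 and 0.468 CPM in shCon and 2.86 and 1.19 CPM in shUBXN1 (log2 fold change 2.14 ± 0.50, adjusted p = 0.00215), with its shUBXN1 replicates far apart. CYP2D7, its neighbour with which CYP2D6 shares 48.8% of its 50-base words, stood at 1.42 and 1.79 CPM in shCon and 3.87 and 3.16 CPM in shUBXN1 (log2 fold change 1.13 ± 0.30, adjusted p = 0.005), and the sum of both genes rose by 1.43 on the log2 scale. CYP4V2, a fatty acid hydroxylase, rose with a log2 fold change of 1.12 ± 0.14, CYP2U1, another fatty acid hydroxylase, with a 2.01-fold higher mean CPM (adjusted p = 0.00115), and CYP2C18 with 1.08 ± 0.42 (adjusted p = 0.0408). CYP2C18 overlaps a readthrough gene over 40.3% of its exon bases. That gene had 141 and 135 counts in shCon and 182 and 181 in shUBXN1, beside 17 and 35 and then 65 and 43 for CYP2C18. CYP2C8 had 2 counts in shCon and 21 in shUBXN1, a ratio of 10.9 (exact 95% counting interval 2.67 to 96.2). It met the count minimum for members almost only through shUBXN1, so this ratio and its interval partly restate that choice. CYP2S1, CYP2R1, CYP2J2, CYP2W1, CYP2C19 and CYP4F2 did not pass the threshold.

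**Figure D4:**
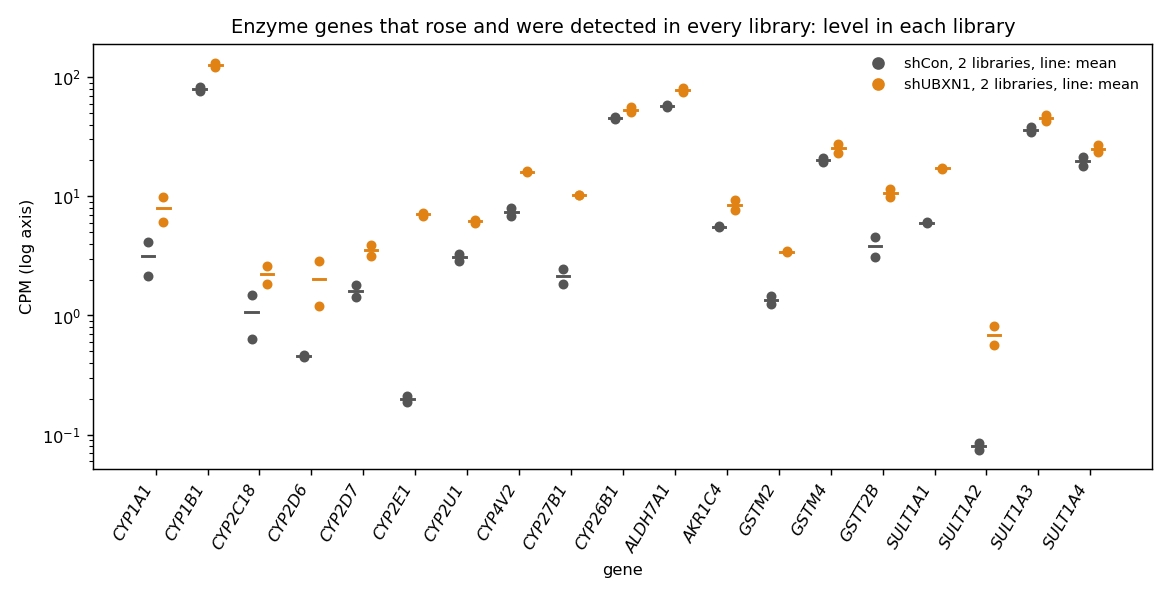
Level of the 19 members that rose and were detected in every library, in CPM on a log axis, in each of the 2 shCon (grey) and 2 shUBXN1 (orange) libraries, with the group mean as a line. CYP2E1 stands at 0.187 and 0.213 CPM in shCon and 6.90 and 7.25 CPM in shUBXN1, and CYP1B1 is the most abundant gene shown.

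Among the other CYP genes 4 fell (44.4%, beside 28.2% of all genes tested) and 3 rose (33.3%, beside 28.0%) of 9 tested. The vitamin D pair moved in opposite directions. CYP24A1, the 24-hydroxylase that inactivates vitamin D, stood at 319 and 321 CPM in shCon and 152 and 139 CPM in shUBXN1 (log2 fold change -1.14 ± 0.076, adjusted p = 2.34e-08), whereas CYP27B1, the 1-alpha-hydroxylase that activates it, stood at 2.44 and 1.83 CPM in shCon and 10.2 and 10.3 CPM in shUBXN1 (log2 fold change 2.26 ± 0.20, adjusted p = 4.16e-07). CYP27A1, the sterol 27-hydroxylase of bile acid synthesis, stood at 71.05 and 76.97 CPM in shCon and 23.2 and 22.4 CPM in shUBXN1 (log2 fold change -1.70 ± 0.084, adjusted p = 1.40e-09). In all 3 genes the groups lay far apart.

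CYP39A1, an oxysterol 7-alpha-hydroxylase, stood at 1.42 and 2.38 CPM in shCon and 0.928 and 0.384 CPM in shUBXN1 (log2 fold change -1.51 ± 0.48, adjusted p = 0.0143), and passed the filter only through shCon. CYP19A1, the aromatase that makes estrogens, stood at 2.25 and 2.59 CPM in shCon and 0.726 and 0.555 CPM in shUBXN1 (log2 fold change -1.91 ± 0.38, adjusted p = 7.26e-04). Of the retinoic acid hydroxylases, CYP26B1 stood at 44.97 and 46.7 CPM in shCon and 50.8 and 55.8 CPM in shUBXN1 (log2 fold change 0.22 ± 0.081, adjusted p = 0.033), a call lost in 6 of 13 alternatives, DESeq2 and GC offsets among them. CYP26A1, which passed the filter only through shUBXN1, had 0 counts in both shCon libraries and 19 and 17 counts in shUBXN1, at least 6.22-fold higher with 3 counts per library taken as the floor. CYP46A1, the cholesterol 24-hydroxylase, was too low to test, with 1 count in shCon and 19 in shUBXN1 (ratio 19.8, exact 95% counting interval 3.14 to 822). It reached the minimum of 20 summed counts almost only through shUBXN1, so this ratio partly restates that choice. The family median of 0.08 became -0.50 with at least 10 counts required in every library, and -0.03 without shUBXN1 replicate 2, and CYP20A1 and CYP27C1 did not pass the threshold.

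Of the conjugating families, UGT1A had the largest share of falls, with 6 of 8 tested genes lower (75%). Beside this share, 28.2% of all genes and 32.2% of protein-coding genes tested were lower. Higher UGT1A genes numbered 0 by edgeR, also at an unadjusted p under 0.05, and by DESeq2, limma-voom and limma on TPM. The family median was -0.72 (-0.39 without shCon replicate 1). The 9 UGT1A genes lie at chr2:233617633-233773300 (GRCh38), each with its own first exon joined to the same downstream exons, so that reads from the shared exons can be divided between them in the counting. UGT1A1, which glucuronidates bilirubin, stood at 131 and 143 CPM in shCon and 49.7 and 55.04 CPM in shUBXN1, with 38.3% left (log2 fold change -1.38 ± 0.082, adjusted p = 7.00e-09). UGT1A10, a form best known from the intestine, stood at 203 and 207 CPM in shCon and 108 and 122 CPM in shUBXN1 (log2 fold change -0.83 ± 0.079, adjusted p = 6.74e-07), and UGT1A6, which acts on small phenols, at 220.0 and 220.4 CPM in shCon and 168 and 164 CPM in shUBXN1 (log2 fold change -0.41 ± 0.071, adjusted p = 2.27e-04). Per length UGT1A6 was the highest of the locus in shUBXN1, at 148 and 135 TPM, and kept 75.3% of its level.

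The remaining UGT1A genes were lower in expression. UGT1A9 stood at 5.25 and 4.04 CPM in shCon and 1.29 and 1.79 CPM in shUBXN1 (log2 fold change -1.59 ± 0.29, adjusted p = 2.86e-04), UGT1A8 at 32.4 and 32.3 CPM in shCon and 24.7 and 25.2 CPM in shUBXN1 (log2 fold change -0.37 ± 0.089, adjusted p = 0.00254) and UGT1A3 at 8.13 and 6.21 CPM in shCon and 5.16 and 4.31 CPM in shUBXN1 (log2 fold change -0.60 ± 0.20, adjusted p = 0.0202). UGT1A4 and UGT1A7 did not pass the threshold and UGT1A5 had too few counts to be tested. Counts summed over the whole locus, which do not depend on how shared reads were divided, came to 602 and 614 CPM in shCon and 358 and 374 CPM in shUBXN1, a log2 fold change of -0.73 ± 0.076 with an adjusted p of 1.79e-06.

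In the UGT2 family edgeR called 0 of the 3 tested genes, with UGT2B10 higher at an unadjusted p under 0.05, and DESeq2, limma-voom and limma on log2(TPM + 1) called 0 as well. UGT2B7, which glucuronidates morphine and steroids and carried most of the family's transcripts, stood at 39.4 and 38.8 CPM in shCon and 42.4 and 39.4 CPM in shUBXN1 (log2 fold change 0.06 ± 0.082, adjusted p = 0.529). Its groups overlapped at 39.4 CPM, and the difference between the UGT1A and UGT2 families was not tested. UGT2B10, which passed the filter only through shUBXN1, had 16 and 8 counts (shCon) against 19 and 33 (shUBXN1) (log2 fold change 1.18 ± 0.52, adjusted p = 0.0656).

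Glutathione transferases are given by class. All 3 alpha-class genes with enough counts, at chr6:52750087-52995304 (GRCh38), fell. GSTA1, the main alpha-class enzyme of hepatocytes, stood at 30.7 and 31.5 CPM in shCon and 8.19 and 7.98 CPM in shUBXN1, with 25.99% left (log2 fold change -1.94 ± 0.11, adjusted p = 4.40e-09). GSTA2, which passed the filter only through shCon, stood at 1.80 and 1.96 CPM in shCon and 0.565 and 0.171 CPM in shUBXN1 (log2 fold change -2.32 ± 0.51, adjusted p = 0.00149), and GSTA4, which conjugates the lipid peroxidation product 4-hydroxynonenal, at 14.8 and 16.3 CPM in shCon and 9.68 and 9.77 CPM in shUBXN1 (log2 fold change -0.68 ± 0.13, adjusted p = 3.92e-04). GSTA1 and GSTA2 are near copies, and their summed counts fell by 1.96 on the log2 scale with an adjusted p of 3.75e-09.

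The mu class was mixed: GSTM2 rose (1.24 and 1.45 CPM in shCon and 3.39 and 3.46 CPM in shUBXN1, log2 fold change 1.35 ± 0.30, adjusted p = 0.0017), GSTM4 rose slightly (0.32 ± 0.11) and GSTM3 fell slightly (-0.20 ± 0.074). GSTT2B of the theta class stood at 3.11 and 4.55 CPM in shCon and 9.84 and 11.5 CPM in shUBXN1 (log2 fold change 1.49 ± 0.20, adjusted p = 1.94e-05). It is a near copy of GSTT2, with 90.9% of its 50-base words in common, and the 2 genes summed rose by 1.48. GSTP1, the pi-class enzyme that is low in normal hepatocytes and often high in tumours, was the most abundant transferase per length and stood at 77.1 and 88.3 CPM in shCon and 81.7 and 86.4 CPM in shUBXN1 (log2 fold change 0.02 ± 0.082, adjusted p = 0.822), with overlapping groups. GSTO1 did not pass the threshold, and GSTO2 fell (-0.70 ± 0.27, adjusted p = 0.0391).

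Of 7 tested sulfotransferases 4 rose (57.1%, beside 28.0% of all genes tested) and 1 fell (14.3%, beside 28.2%), with a median of 0.34. SULT1A1, the main phenol sulfotransferase, stood at 5.96 and 6.08 CPM in shCon and 17.1 and 17.3 CPM in shUBXN1, a 2.86-fold difference (log2 fold change 1.51 ± 0.13, adjusted p = 3.16e-07), and both shUBXN1 libraries lay far above shCon. SULT1A2, which passed the filter only through shUBXN1, had 2 and 2 counts (shCon) against 14 and 19 (shUBXN1) (log2 fold change 3.03 ± 0.70, adjusted p = 0.0021). SULT1A3 and SULT1A4, which sulfate dopamine and other catecholamines, are copies that share 97.3% of the 50-base words of SULT1A4. The readthrough genes SLX1A-SULT1A3 and SLX1B-SULT1A4 cover 70.7% and 86.7% of their exon bases on the same strand and are not part of their sum. The summed counts of SULT1A3 and SULT1A4 rose by 0.34 on the log2 scale (adjusted p = 0.00248). The family's most abundant member went the other way: SULT1C2 stood at 283 and 257 CPM in shCon and 209 and 176 CPM in shUBXN1 (log2 fold change -0.49 ± 0.089, adjusted p = 3.20e-04). SULT1B1, which sulfates thyroid hormones, and SULT1C4 did not pass the threshold, and the shUBXN1 replicates of SULT1B1 stood apart at 12 and 6.19 CPM.

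Many members are neighbours. With gaps of at most 500 kb, 63 of the 99 members fell into 19 clusters, and 2 of these held both a gene that rose and a gene that fell, the GSTM cluster on chromosome 1 and the AKR1C cluster with AKR1E2 on chromosome 10. Clusters such as CYP2D, SULT1A and UGT1A hold near copies whose reads can be exchanged in counting, so calls within them are not independent.

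Of the 20 rises and 34 falls, 7 rises and 6 falls were lost in at least 1 fit with a library left out. Without shCon replicate 1 these were CYP2C18 (adjusted p = 0.33), UGT1A3 (0.251), CYP26B1 (0.194), GSTO2 (0.155), GSTM4 (0.121), SULT1A3 (0.0675), GSTM3 (0.0603) and AKR1C3 (0.0553). Without shCon replicate 2 they were GSTM3 (0.327), SULT1A4 (0.275), ADH1C (0.248), CYP26B1 (0.174), CYP39A1 (0.152), GSTO2 (0.0963) and AKR1C3 (0.0619). Without shUBXN1 replicate 1 they were CYP2C18 (0.194), ADH1C (0.18), GSTO2 (0.0935), CYP2D6 (0.0826, with a log2 fold change of 1.37) and AKR1C4 (0.0561), and without shUBXN1 replicate 2 GSTM4 (0.185), CYP26B1 (0.177), SULT1A4 (0.0977), CYP39A1 (0.0807) and UGT1A3 (0.0541). All kept their direction in these fits, in which the lone library of a group is assumed to vary like the pair of the other group. The log2 fold change moved by over 1.5 times for CYP2C18 (0.59, from 1.08) and UGT1A3 (-0.39, from -0.60) without shCon replicate 1, SULT1A4 (0.21, from 0.35) without shCon replicate 2, ADH1C (-0.14, from -0.24) and CYP2D6 without shUBXN1 replicate 1, and GSTM4 (0.18, from 0.32) and CYP26B1 (0.13, from 0.22) without shUBXN1 replicate 2. In the other lost calls the fold stayed closer, as for GSTO2 and AKR1C3. The other 13 rises and 28 falls passed the threshold in every alternative in which the gene was tested.

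Other genes of the pathway were described from a list of 55 reductases, hydrolases, methyl and acetyl transferases, microsomal transferases and suppliers of cosubstrates. Of 47 tested, 22 fell and 8 rose, beside 28.2% and 28.0% of all genes and 32.2% and 29.7% of protein-coding genes tested. Their median log2 fold change was -0.30, beside 0.02 for all genes tested. The largest falls were of the glutathione peroxidases GPX2 (586 and 627 CPM in shCon and 211 and 238 CPM in shUBXN1, log2 fold change -1.43 ± 0.085) and GPX1 (-1.20 ± 0.09), the quinone reductase NQO1 (1111 and 1140.3 CPM in shCon and 499 and 559.7 CPM in shUBXN1, -1.09 ± 0.086) and the electron donor CYB5B (-1.04 ± 0.074). GCLM and GCLC, the subunits of the enzyme that limits glutathione synthesis, chosen here after their values were seen, had log2 fold changes of -1.04 and -0.88. NNMT, the nicotinamide N-methyltransferase, had 0 counts in both shCon libraries and 27 and 22 in shUBXN1, at least 8.45-fold higher with 3 counts per library as the floor, and passed the filter only through shUBXN1. Among genes detected in shCon the largest rises were of GGT1, which breaks down glutathione outside the cell (3.63 and 5.40 CPM in shCon and 16.99 and 16.4 CPM in shUBXN1, 1.89 ± 0.17), ADHFE1 (1.54 ± 0.37), the carbonyl reductase CBR4 (1.19 ± 0.12) and the esterase AADAC (0.67 ± 0.12). POR, which passes electrons to every microsomal P450, stood at 218 and 225 CPM in shCon and 192 and 206 CPM in shUBXN1 (log2 fold change -0.15 ± 0.074, adjusted p = 0.095).

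Of 20 receptors and factors that control these enzymes 19 were tested, and 10 rose and 6 fell. Beside these counts, 28.0% of all genes tested rose and 28.2% fell, and 29.7% and 32.2% of protein-coding genes tested. The same shares stand beside the counts of hepatocyte markers below. Among hepatocyte factors, CEBPA fell and stood at 123 and 128 CPM in shCon and 36.6 and 45.95 CPM in shUBXN1 (-1.60 ± 0.096), and FOXA1 fell and stood at 51.4 and 52.7 CPM in shCon and 17.8 and 21.7 CPM in shUBXN1 (-1.40 ± 0.099). Smaller falls were those of FOXA2 (-0.57 ± 0.099), the bile acid receptor NR1H4 (-0.55 ± 0.12) and HNF4A (-0.30 ± 0.079). Of 12 hepatocyte markers, 8 fell and 2 rose, with a median of -0.77. ALB was at -1.97, while KRT18 rose by 0.31 on the log2 scale. TTR and FGB, among the falls and in the median, passed the filter only through shCon. HNF4A stands in both lists, and the part of the regulators and markers in the enzyme changes was not tested.

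AHR itself fell and stood at 179 and 169.9 CPM in shCon and 88.3 and 88.4 CPM in shUBXN1 (-0.98 ± 0.073), while its partner ARNT rose (88.2 and 83.6 CPM in shCon and 169 and 181 CPM in shUBXN1, 1.03 ± 0.075), the repressor AHRR rose from a low level (1.57 ± 0.44) and the AHR target TIPARP did not pass the threshold (0.09 ± 0.089, adjusted p = 0.389). For the oxidant sensor pair, NFE2L2, which encodes NRF2, stood at 118 and 124 CPM in shCon and 130.4 and 153 CPM in shUBXN1 (0.23 ± 0.084) and KEAP1 rose by 0.32 on the log2 scale. The small Maf partner MAFG rose and stood at 21.02 and 15.1 CPM in shCon and 64.03 and 67.5 CPM in shUBXN1 (1.86 ± 0.12) and the repressor BACH1 rose as well (0.49 ± 0.079). Among receptors, PPARA (0.76 ± 0.10), RXRA (0.21 ± 0.071) and NR3C1 (0.20 ± 0.079) rose, CEBPB rose (0.53 ± 0.076), and NR1I2, which encodes PXR, had a log2 fold change of -0.01 ± 0.14. NR1I3, which encodes CAR, stayed below 0.6 CPM in every library. Of the 16 regulator calls 10 held in all 13 alternatives, 5 in each direction. The others were lost in 6 alternatives for KEAP1 (adjusted p up to 0.359), 5 for NR3C1 (0.43), 4 for RXRA (0.39), 3 for NFE2L2 (0.213) and 1 each for AHRR (1.14 and 0.112 without shUBXN1 replicate 1) and HNF4A (-0.27 and 0.101 without shCon replicate 2). KEAP1 was at 0.20 without shCon replicate 2, RXRA at 0.08 with GC offsets, and NR3C1 at 0.12 and NFE2L2 at 0.099 without shUBXN1 replicate 2.

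**Figure D5:**
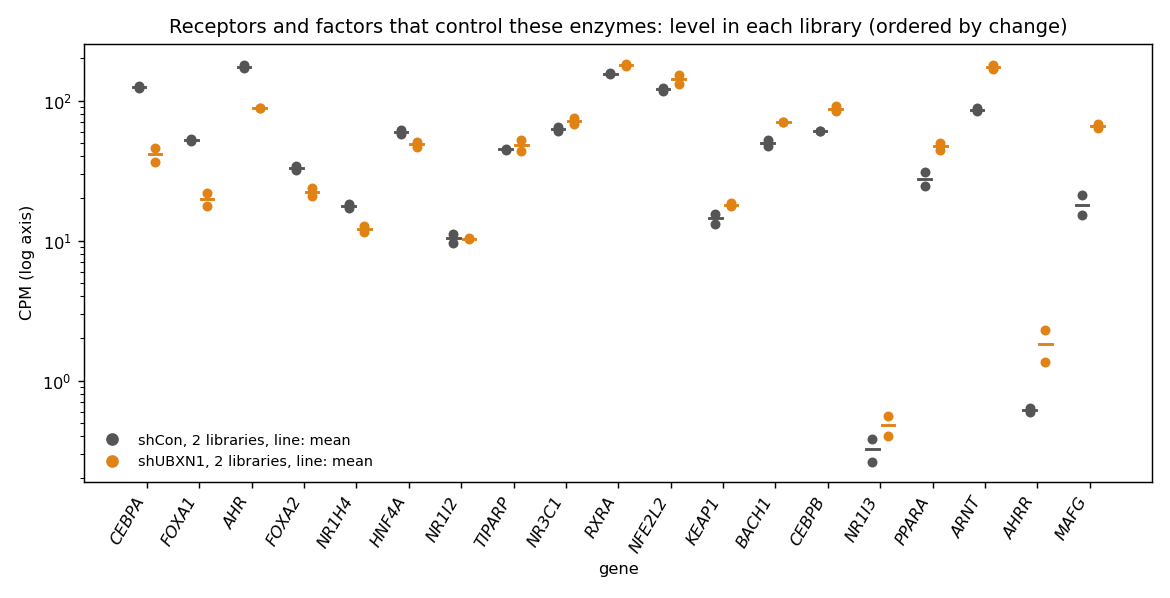
Level of the 19 tested regulators in CPM on a log axis, in each of the 2 shCon (grey) and 2 shUBXN1 (orange) libraries, with the group mean as a line, ordered from the largest fall to the largest rise. CEBPA, FOXA1 and AHR lie lower in shUBXN1, and MAFG, AHRR, ARNT and PPARA higher.

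Promoter sequence was examined for the recognition letters of AHR and NRF2, to show what the reference holds near the starts of genes that did and did not move. RefSeq promoters (GRCh38.p14, 250 bases before to 50 after the start) matched 78 of the 99 members by symbol, 12 of the 20 that rose and 26 of the 34 that fell. Among those without an entry were CYP1B1, CYP2D6, CYP27B1 and SULT1A1, which rose, and AKR1B10, AKR1B15, ALDH3A1, CYP24A1 and UGT1A10, which fell. The antioxidant response element, searched as TGACNNNGC on both strands, was found in 10 member promoters (12.8%), beside 13.6% of all 27305 promoters. It was in 4 of 26 promoters of genes that fell, 1 of 12 that rose and 3 of 32 not past the threshold. The core of the xenobiotic response element, searched as GCGTG on both strands, was in 23 member promoters (29.5%), beside 36.3% of all promoters, among them 4 of 12 that rose and 7 of 26 that fell. Such a match is a description of letters, not a site shown to be bound, and the shares of members lay near or below those of all promoters for both searches.

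The windows below show 1 match in a gene that rose, 2 in genes that fell, 1 in a gene that did not pass the threshold, and the start regions of 2 sister UGT1A genes. Each is 30 bases, written 5′ to 3′ on the gene's strand, with the matched letters in capitals. CYP1A1 (chr15:74725568-74725597) holds the response element core of AHR. CYP4F11 (chr19:15935004-15935033), GSTA4 (chr6:52995274-52995303) and GSTP1 (chr11:67583736-67583765) hold the antioxidant response element, reversed in CYP4F11. UGT1A8 (chr2:233617595-233617624) and UGT1A9 (chr2:233671821-233671850) hold the xenobiotic core in reverse.
CYP1A1: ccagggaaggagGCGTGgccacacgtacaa
CYP4F11: ctgtgcccatGCTGTGTCAccctgagctgg
GSTA4: ccgggaccgcTGACCTGGCgctttgtgcgg
GSTP1: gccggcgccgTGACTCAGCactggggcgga
UGT1A8: acaggataaataCACGCcctctattggggt
UGT1A9: aaaggataaaaaCACGCcctctattggggt
Beside these letters, CYP1A1 rose with AHR lower and ARNT higher, GSTA4 and CYP4F11 fell while GSTP1, with the same element, did not pass the threshold, and UGT1A8 and UGT1A9, nearly alike in this window, fell by 0.37 and 1.59 on the log2 scale.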

How the data were processed

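Total RNA of MHCC97H cells was sequenced in 4 libraries, 2 shCon and 2 shUBXN1, grouped by their titles. The paper's methods name GRCh38, Hisat2, TPM values and limma, whereas the submitters' processing notes name GRCh37, HISAT2 2.0.4 and StringTie 1.3.0. The methods name a TruSeq kit and the labels a VAHTS kit. The deposited table holds expected counts for each gene, without normalization by the authors, and a gene length; 62.4% to 64.6% of values above 0 are whole. The counting tool, the annotation and the use of strand are not given in the sources used here, so overlapping and near-identical genes are uncertain.

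Expected counts were rounded, filtered with filterByExpr (about 0.419 CPM in 2 libraries), scaled by TMM and tested with glmQLFTest in edgeR 4.0.16 under R 4.3.3, with group as the only term. Each gene had 2 residual degrees of freedom, and the biological coefficient of variation was 0.0711. TPM was computed from counts and the deposited lengths. Symbols and GRCh38 coordinates came from GENCODE 44 by gene ID (99.7% matched). The expected counts of replicates differed by more than sampling noise (chi-square per degree of freedom 3.65 in shCon and 7.77 in shUBXN1). On simulated counts for this comparison with 200 changed genes among 16863, 83.5% were recovered and 22 others called. The changes set were 2-fold or larger and in few genes, whereas 56.2% of genes were called here. Recovery of smaller changes was not tested.

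Members and gene lists were chosen with earlier results of these data known, and 1 member and 1 listed gene, the latter left out of its lists' counts, are not reported here. Genes named are, in each family, up to 4 rises and 4 falls by size among those with an adjusted p under 0.05, a mean of at least 1 CPM and groups that do not overlap, the most abundant member, all tested regulators, and from the pathway list the 4 largest rises and falls; other members are named to account for all, and near copies where reads may be shared. Alternatives were DESeq2 1.42.0, total count scaling, no filter, at least 10 counts in every library, limma 3.58.1 on log2(TPM + 1), limma-voom, a replicate block, GC offsets, each library left out, and the lists without other CYP genes or near copies. Summing near copies was added after seeing the data.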

Additional observations from a re-analysis of the deposited data

How the results depend on the processing

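Counts of members that rose and fell kept within 1.5 times the reported 20 and 34 under every alternative, the lists without other CYP genes (17 and 30) and near copies summed (16 and 26) included. Leaving out each library gave 18 to 21 rises, 29 to 34 falls, 12 to 14 and 17 to 18 at 2-fold, and a member median of -0.12 to -0.02. With total count scaling the member median became 0.026, with the median of all genes at 0.10 in place of 0.02. With limma on log2(TPM + 1), whose pseudocount compresses low genes, 8 members were higher at 2-fold in place of 15. Family medians kept their sign for CYP1 to CYP4 (0.17 to 0.75), FMO, ADH, AKR1, UGT1A (-0.83 to -0.39), GST and SULT, and not for other CYP (-0.50 to 0.17), ALDH (-0.14 to 0.12) and UGT2 (-0.019 to 0.27). Among named genes the sign turned for 4 (ADH5, NR1I2, GSTP1, TIPARP), none past the threshold in the reported test. The log2 fold change of ADH5 was 0.026 with total count scaling and 0.00036 with limma on TPM. The log2 fold change of NR1I2 was 0.077, 0.019, 0.049 and 0.095 with total count scaling, at least 10 counts, limma on TPM and without shCon replicate 1. The log2 fold change of GSTP1 was -0.094 with GC offsets and -0.0925 with the block added. With each library left out, it ranged from -0.0715 to 0.11, and the log2 fold change of TIPARP from -0.043 to 0.21. Over 75 named genes and 13 alternatives, 901 of 971 values kept direction and side of the threshold. Same-numbered libraries deviated from their group means with a correlation of 0.0393, so the numbers were not taken as pairs; with the replicate block 20 members rose and 34 fell. Genes near 1 CPM rest on few counts in each library, and 2 libraries per group limit how well their spread is known.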

Other observations

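Beside the protein-coding members, 111 genes of other types carry the same prefixes, and 14 of them had at least 20 counts. Of the 13 that passed the filter on low counts, 4 rose, 1 fell and 8 did not pass an adjusted p of 0.05 in edgeR's quasi-likelihood test. Beside these counts, 28.0% of all genes tested rose and 28.2% fell. The most abundant, UGT2B26P, a pseudogene next to the UGT2B genes, had 863 and 775 counts (shCon) against 1404 and 1204 (shUBXN1) (log2 fold change 0.73 ± 0.084, adjusted p = 4.60e-06), whereas UGT2B7 had a log2 fold change of 0.06 that did not pass the threshold. AKR1B10P1, a processed copy of AKR1B10, had 46 and 33 counts (shCon) against 14 and 16 (shUBXN1) (log2 fold change -1.32, adjusted p = 0.0176), close to AKR1B10 itself at -1.24; whether its counts are reads of AKR1B10 was not tested. The other 3 that rose were CYP1B1-AS1, CYP4F33P and CYP2T1P.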
